A study of Mus musculus with 12 samples.

Results

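Of the 4286 sites at which Mirlet7d chromatin was captured in MLE-12 cells, 244 lay on long interspersed nuclear elements (LINEs), which is 5.69% of the sites (95% interval 5.02 to 6.43%). They were chosen by the authors' detailed annotation, as the peaks whose repeat label has LINE as its class, and the first and last parts of that label gave the subfamily and family of each. All intervals of shares here are exact Clopper-Pearson intervals. They cover counting error only, since peaks of 1 library are not replicates.

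MLE-12 is a mouse cell line of lung epithelial origin, and the series holds 12 libraries from it, 1 in each group. ChIRP-seq pulls an RNA out of crosslinked chromatin with complementary probes and sequences the DNA that comes with it. In the ChIRP-seq library, chromatin was incubated for 4 h with 150 pmol of biotinylated probes tiling mature Mirlet7d, and the label also carries the tag "gof: Mirlet7d". In the pull-down library, cells were transfected with 25 nM of biotinylated Mirlet7d and harvested after 48 h, and bound RNA was taken on streptavidin beads. An input library stands beside each, and no capture with another probe was used here as a control, so capture through Mirlet7d and capture without it cannot be told apart. The 2 captures came from cells in different media, DMEM:F12 for ChIRP-seq and DMEM for the pull-down. The role of the ChIRP-seq input in peak calling is not stated in the labels. The cell label could not be set against marker genes, because the tables used hold selected peaks and candidates and no levels of unselected genes.

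LINEs are retrotransposons that copy themselves through an RNA, which a reverse transcriptase encoded by intact copies turns back into DNA at a new site. The L1 family is the LINE family still active in mice, and its youngest members carry the L1Md names, whereas L2, L3 and L4 are remnants of ancient families that no longer move. In somatic cells most L1 copies are held silent by DNA methylation and repressive histone marks. Mirlet7d is a microRNA of the let-7 family, whose members pair with target RNAs mainly through the seed at their start.

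Mature Mirlet7d, against which the probes were made, is shown first in both its arms, since the labels do not say which arm was used, followed by the promoters of 4 genes that had a LINE peak within 10 kb. In the 2 mature arms, from RefSeq with build GRCm38.p6, capitals mark the seed, bases 2 to 8 counted from the 5' end. In the promoters, which run from 250 bases before to 50 bases from the gene start on and are written in the direction of the gene, capitals mark GAGGTAG, the seed of the 5p arm in DNA letters, or its complement CTACCTC. Bcar1 and Dgcr2 are shown because theirs held a match, Msh5 and Itprip because their RNA or a promoter-associated RNA was also on the pull-down lists. Bcar1 had 2 promoters in the RefSeq table, and the one with the match is shown.
mmu-let-7d-5p: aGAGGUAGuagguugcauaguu
mmu-let-7d-3p: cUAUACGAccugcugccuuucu
Bcar1: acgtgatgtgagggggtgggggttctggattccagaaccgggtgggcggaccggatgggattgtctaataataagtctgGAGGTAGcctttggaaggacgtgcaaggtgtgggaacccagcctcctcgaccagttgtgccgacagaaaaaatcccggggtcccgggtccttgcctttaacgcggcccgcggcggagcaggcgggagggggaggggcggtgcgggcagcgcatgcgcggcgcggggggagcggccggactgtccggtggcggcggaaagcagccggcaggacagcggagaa
Dgcr2: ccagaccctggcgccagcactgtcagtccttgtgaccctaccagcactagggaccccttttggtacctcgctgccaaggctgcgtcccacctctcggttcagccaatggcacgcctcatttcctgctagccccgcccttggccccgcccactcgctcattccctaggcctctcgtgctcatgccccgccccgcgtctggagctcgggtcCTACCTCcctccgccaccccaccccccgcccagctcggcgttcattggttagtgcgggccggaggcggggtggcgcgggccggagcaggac
Msh5: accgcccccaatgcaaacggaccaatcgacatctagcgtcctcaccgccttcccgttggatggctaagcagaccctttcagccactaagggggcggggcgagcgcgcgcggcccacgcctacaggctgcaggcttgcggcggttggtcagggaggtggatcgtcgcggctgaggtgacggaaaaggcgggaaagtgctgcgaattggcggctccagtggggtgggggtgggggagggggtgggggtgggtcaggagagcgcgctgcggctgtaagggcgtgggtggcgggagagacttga
Itprip: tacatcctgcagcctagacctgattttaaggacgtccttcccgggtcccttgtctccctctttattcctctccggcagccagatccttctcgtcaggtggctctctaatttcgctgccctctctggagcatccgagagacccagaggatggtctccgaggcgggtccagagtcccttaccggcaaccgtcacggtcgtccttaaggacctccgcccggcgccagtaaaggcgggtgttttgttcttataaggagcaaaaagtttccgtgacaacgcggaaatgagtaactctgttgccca
All 4 promoters lie on the minus strand, Bcar1 at chr8:111743800-111744099, Dgcr2 at chr16:17891679-17891978, Msh5 at chr17:35046573-35046872 and Itprip at chr19:47919274-47919573 of GRCm38.p6, whereas peak positions in the text are those of mm9. The first base of the match was at position -171 from the gene start in Bcar1 and at -41 in Dgcr2. Of the 238 genes nearest to a LINE peak, 170 had a promoter in the RefSeq table, and 11 of these held GAGGTAG or CTACCTC, which is 6.47% (3.27 to 11.3%). The share was 4.05% (3.24 to 5.0%) of the 2048 genes nearest to other peaks and 4.44% of all 27025 genes in the table, both within the interval of the LINE genes. Of the 36 genes with a LINE peak within 10 kb, 29 had a promoter in the table. Of these, 2 held a match (6.9%, 0.846 to 22.8%), an interval that also holds both shares. The 2 strings do not overlap each other, both strands were searched through them, and a match is only a run of letters.

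The LINE peaks were mostly of the L1 family and were spread thinly over many kinds of L1. L1 held 217 of the 244 (88.9%, 84.3 to 92.6%), L2 held 24 (9.84%), CR1 held 2 and RTE held 1. The labels named 59 subfamilies, of which 17 had a single peak and 23 had 4 or more, together 179 peaks. By their names the peaks were put in 4 groups. The young L1Md group held 45 peaks (18.4%), other L1 with rodent names, such as Lx, L1_Mus and L1VL, held 132 (54.1%), L1 with mammalian names, such as L1M and HAL1, held 40 (16.4%), and L2, L3 and L4 held 27 (11.1%). Copies of old subfamilies have gathered more mutations, so they differ more from one another than young copies do. Reads from young copies can therefore match several places, and how such reads were treated is not given in the sources used here.

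Lx8, a rodent L1 subfamily, was the most frequent with 22 peaks, 11 of them intronic and 11 intergenic. The next 3 were young L1Md subfamilies, L1Md_F2 with 18 peaks, L1Md_T with 13 and L1Md_A with 10. Lx5 had 10 peaks, L1_Mus1 and Lx6 had 9 each, L1VL2 had 8, and L1VL4, Lx7 and the old L2a had 7 each. L1_Mus3, L2 and L2b had 6 each, and L1MB7, L1_Mus2, L2c, Lx and Lx9 had 5 each. L1ME1, Lx2, Lx3B and Lx3C had 4 each. Whether any subfamily had more peaks than its share of the genome was not computed, because copy numbers are not in the files used here.

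**Figure D1:**
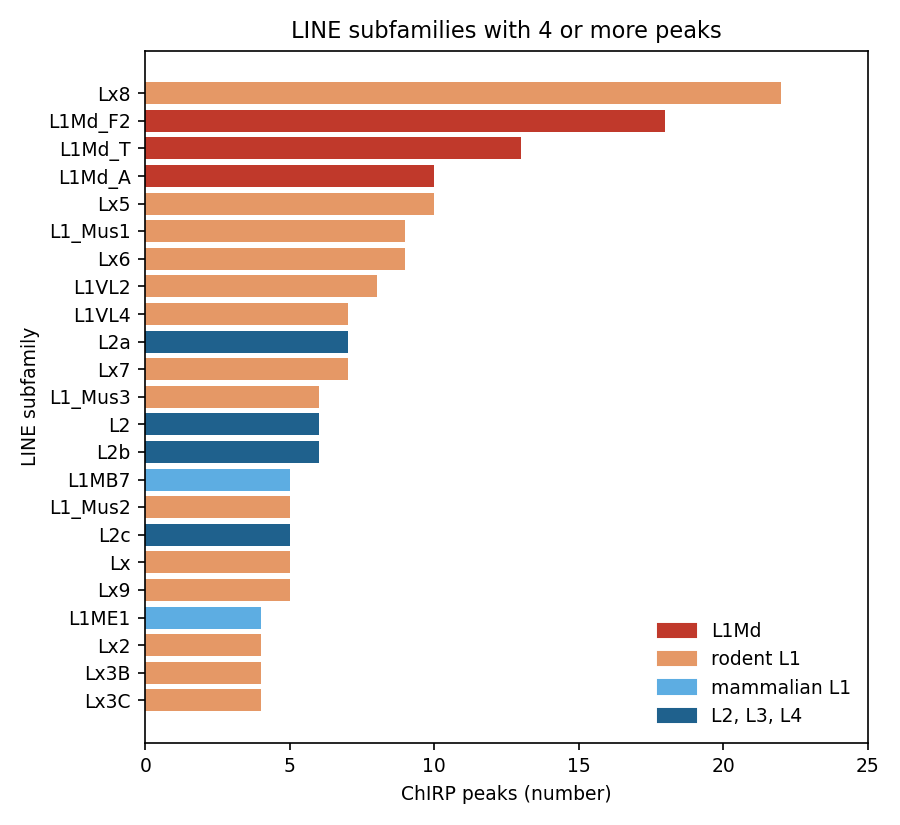
Number of ChIRP peaks (x axis) on each LINE subfamily with 4 or more of them (y axis), coloured by group of names. Lx8 leads with 22 peaks, and L1Md_F2, L1Md_T and L1Md_A follow with 18, 13 and 10.

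By the deposited score, LINE peaks lay near the lowest value of the list, with a few exceptions, as did LTR and SINE peaks and most of the list. The score is the authors' MACS score, with a lowest value of 30.01, and it is used here only to describe and rank peaks within this list. LINE peaks ran from 30.03 to 159.99 with a median of 33.47 (33.09 to 34.02, an order-statistic interval), against 33.33 for LTR peaks, 33.85 for SINE peaks, 34.14 for intronic and intergenic peaks with no repeat label and 34.3 over all peaks. Of the LINE peaks, 42 scored above 40, which is 17.2% (12.7 to 22.5%), against 14.3% of LTR peaks, 16.3% of SINE peaks, 23.4% of peaks with no repeat label and 24.8% of all peaks. The LINE share lay below that of all peaks and above those of LTR and SINE peaks, which were within the LINE interval, and no difference was tested, since peaks of 1 library are not replicates. The 4 groups had median scores of 33.59 for L1Md, 33.11 for rodent L1, 34.01 for mammalian L1 and 34.35 for L2, L3 and L4, and their intervals overlapped. LINE peaks had a median width of 597.5 bases (571 to 622), against 646 over all peaks.

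The 2 highest LINE peaks were both on young L1, and they stood apart from the rest. The first, at chr13:9833044-9833863 on L1Md_T, had a score of 159.99 and lay 68893 bases before the start of Zmynd11, a reader of a histone methylation mark in gene bodies. The second, at chr2:69193208-69194067 on L1Md_F2, had a score of 146.6 and lay 12964 bases before Abcb11, the bile salt export pump. The third, at chr3:21597086-21597975 on L1_Mus2, had a score of 92.54 and was 378044 bases before Tbl1xr1, a subunit of a nuclear corepressor complex. In all, 3 LINE peaks were among the 100 highest of the whole list, the best at rank 24.

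The other LINE peaks with a score above 60 were 4. A peak on L1ME1 near Pigz, a mannosyltransferase of membrane anchor synthesis, scored 68.53. An intronic L1Md_F2 peak near Dnah7b, a dynein heavy chain of cilia, scored 65.63. An intronic L1_Mm peak near Il1rapl1, a synaptic membrane protein, scored 65.1, and an L1_Mus1 peak near Speer4d scored 62.64. The next were an L2 peak in an intron near Umps, the enzyme that completes pyrimidine nucleotide synthesis, with 59.54, which was the highest of its family, and an Lx3B peak near Arl8b, a small GTPase of lysosomes, with 59.13. Peaks near Marcks (Lx5), Tmcc1 (L1VL4), Bcar1 (L1MC3), Gkn2 (L1MC), Dysf (L2a) and Msh5 (L2c) completed the highest 15, with scores of 57.3, 56.53, 52.88, 50.11, 49.78 and 49.6. At the lower end, an Lx7 peak near Cd209g and an L2a peak near Leprel4 both had 30.03. The 2 CR1 peaks were on L3, the higher with 40.87 near 4930572O13Rik, and the RTE peak was on L4 near Sorcs3 with 32.08.

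**Figure D2:**
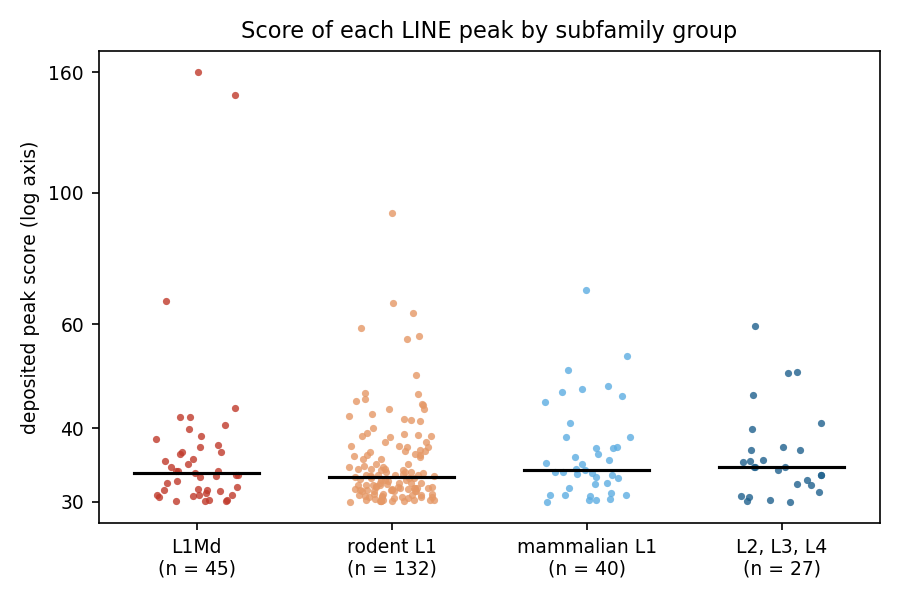
Deposited score of each LINE peak (y axis, log axis) by group of subfamily names (x axis), 1 point a peak, with a bar at the median. Medians run from 33.11 to 34.35, and the 2 points above 100 are both L1Md.

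LINE peaks lay between genes in a larger share than all peaks together, with LTR peaks above them, and within LINEs the share was highest on young L1. Of the 244 peaks, 98 were intronic (40.2%, 34.0 to 46.6%) and 146 intergenic (59.8%), and none had another class. The intronic share was 32.3% of LTR peaks, 49.7% of SINE peaks, 55.9% of peaks with no repeat label and 42.6% of all peaks. Since none of the 1013 peaks with a repeat label had a class other than intronic or intergenic, the closer comparison is with the 3542 peaks of those 2 classes, of which 51.6% were intronic. LINEs made up 8.51% (7.23 to 9.93%) of the 1716 intergenic peaks and 5.37% (4.38 to 6.5%) of the 1826 intronic ones.

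Within the LINE peaks the intergenic share was lower with each older group of names. It was 39 of 45 for L1Md (86.7%, 73.2 to 94.9%), 77 of 132 for rodent L1 (58.3%, 49.4 to 66.8%), 19 of 40 for mammalian L1 (47.5%, 31.5 to 63.9%) and 11 of 27 for L2, L3 and L4 (40.7%, 22.4 to 61.2%). The interval of L1Md overlapped none of the other 3, and those 3 overlapped one another. The order was kept on the 5 chromosomes with most peaks, at 94.1, 56.0, 46.7 and 36.8%. On the other chromosomes L1Md had 82.1% and rodent L1 61.4%, and in the older groups 5 of 10 and 4 of 8 peaks were intergenic. Young L1 copies are known to be sparse in genes throughout the mouse genome, and the genome's own share was not computed, so how much of this order the peaks share with the copies themselves was not tested.

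**Figure D3:**
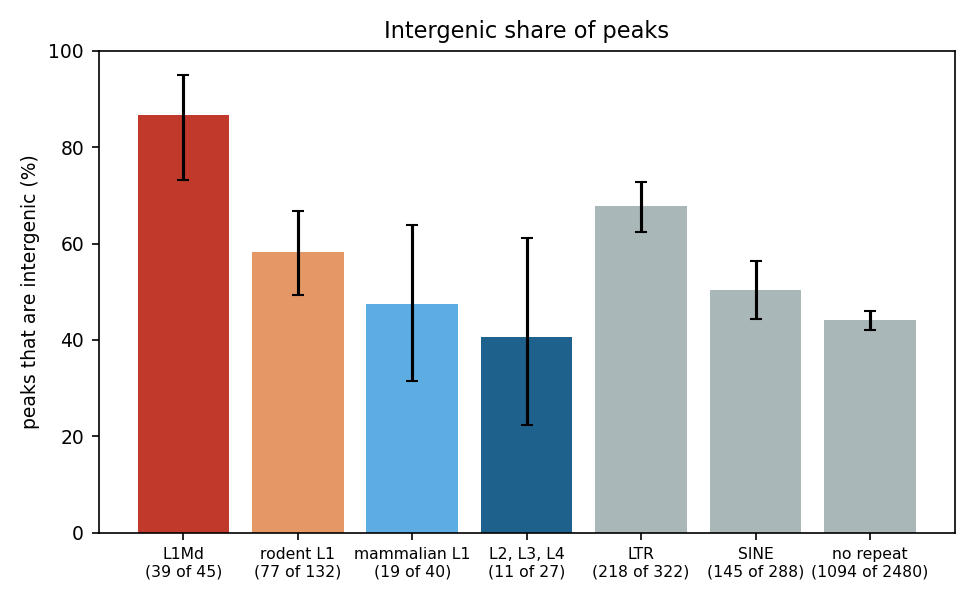
Share of peaks that are intergenic (y axis, %) for the 4 LINE groups and, in grey, LTR, SINE and intronic or intergenic peaks with no repeat label. Error bars are exact 95% Clopper-Pearson intervals, and L1Md stands highest with 86.7%.

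Peaks on young L1 also lay farthest from the nearest transcription start site (TSS). The deposited distance, taken without its sign, had a median of 43240 bases for LINE peaks (34002 to 59563), against 23112 for LTR peaks, 10919.5 for SINE peaks, 18677 for peaks with no repeat label and 14234.5 over all peaks. The interval of the LINE median overlapped none of those of the other 3 kinds. By group the medians were 119597 bases for L1Md (68893 to 162386), 47761.5 for rodent L1 (32523 to 65275), 25883.5 for mammalian L1 (14985 to 34002) and 33942 for L2, L3 and L4 (14545 to 44146). The interval of L1Md overlapped none of the other 3. Among intergenic peaks alone the medians were 127919, 65275, 25668 and 33942 bases in the same order of groups.

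Few LINE peaks were near a start site. Within 10 kb lay 36 of 244 (14.8%, 10.6 to 19.8%), against 26.4% of LTR peaks, 46.9% of SINE peaks, 35.1% of peaks with no repeat label and 42.6% of all peaks. The share over all peaks includes promoter peaks, which carry no repeat label, and among intronic and intergenic peaks the share was 33.7%. More than 100 kb away lay 79 LINE peaks (32.4%) and 24 of the 45 L1Md peaks (53.3%), against 12.8% of all intronic and intergenic peaks.

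The 10 LINE peaks nearest to a start site were mainly old elements, with no L1Md among them. An L2c peak in an intron lay 504 bases after the start of Sec23ip, a factor of vesicle export from the endoplasmic reticulum, at chr7:135888681-135889096. Another L2c peak, at chr17:35182373-35183155, lay 787 bases from the start of Msh5, a meiotic recombination protein, and an L2a peak, at chr11:71856530-71857279, lay 900 bases after the start of Fam64a, a protein of mitosis. The L1ME1 peak named above lay 1382 bases before Pigz, and another on L1ME1 lay 1663 bases after the start of Fto, an RNA demethylase. The remaining 5 lay between 2079 and 2793 bases from the starts of Ndufb4 (L2b), Rasa2 (Lx8), Sppl2a (L1M5), Itprip (HAL1-3A_ME) and Raet1a (Lx8). Of the 10, 4 were L2, 4 mammalian L1 and 2 Lx8.

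**Figure D4:**
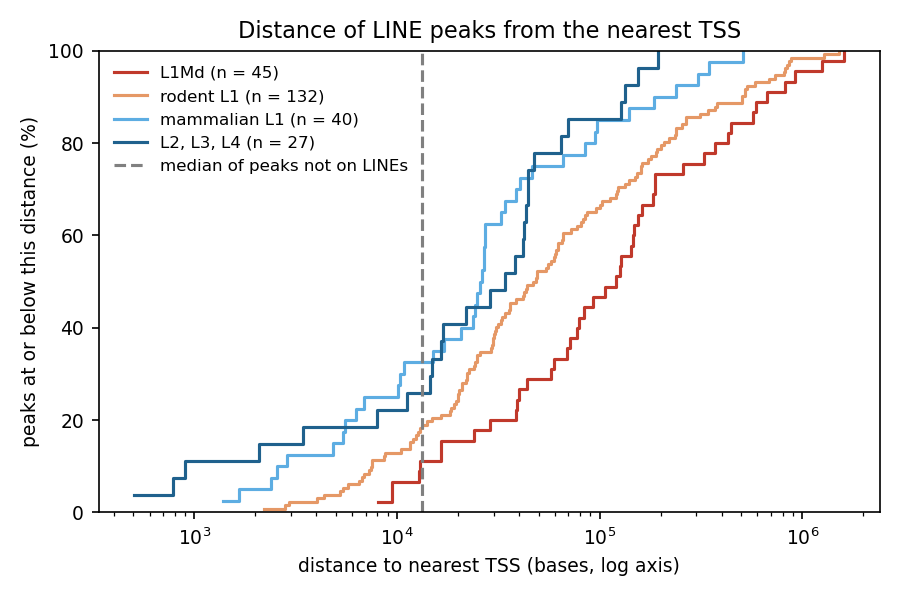
Cumulative share of LINE peaks (y axis, %) at or below each distance to the nearest TSS (x axis, bases, log axis) for the 4 groups, with the median of the peaks not on LINEs as a dashed line. The L1Md curve lies farthest right, with its median at 119597 bases.

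Chromosomes 6, 8, 11, 16 and 19 held most peaks of the list, and LINE peaks were on them in a similar share but an uneven one. They held 141 of the 244 LINE peaks (57.8%, 51.3 to 64.1%), against 54.0% of LTR peaks, 64.2% of SINE peaks, 62.8% of peaks with no repeat label and 62.2% of all peaks. By group the share was 17 of 45 for L1Md (37.8%, 23.8 to 53.5%), 75 of 132 for rodent L1 (56.8%), 30 of 40 for mammalian L1 (75%, 58.8 to 87.3%) and 19 of 27 for L2, L3 and L4 (70.4%, 49.8 to 86.2%). The intervals of L1Md and mammalian L1 did not overlap. All 7 L2a peaks were on these chromosomes. Of the L1Md subfamilies, L1Md_F2 had 9 of 18 peaks there, L1Md_T 3 of 13, L1Md_A 2 of 10, L1Md_F 2 of 2 and L1Md_F3 1 of 2.

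Among the 5, chromosome 6 held the most LINE peaks and chromosome 11 the fewest. LINEs made up 52 of 638 peaks on chromosome 6 (8.15%, 6.15 to 10.6%) and 33 of 387 on chromosome 16 (8.53%, 5.94 to 11.8%). They were 30 of 676 on chromosome 8 (4.44%), 14 of 340 on chromosome 19 (4.12%) and 12 of 625 on chromosome 11 (1.92%, 0.996 to 3.33%). The interval of chromosome 11 lay below those of chromosomes 6 and 16. Chromosome 11 held 4.92% of LINE peaks, against 10.9% of LTR peaks, 20.8% of SINE peaks and 14.8% of peaks with no repeat label. Elsewhere, LINEs were 9 of 45 peaks on chromosome X (an interval of 9.58 to 34.6%), 5 of the 9 on L1Md, and 1 of 118 on chromosome 9. LINE content differs between chromosomes of the mouse genome, and its part in these shares was not tested.

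Peaks scoring above 40 were 15.6% (10.0 to 22.7%) of LINE peaks on the 5 chromosomes and 19.4% (12.3 to 28.4%) of those on the others. These intervals overlapped, and no difference was tested. Among the peaks that were not on LINEs the shares were 29.5% on the 5 and 18.3% on the others. The 2 LINE peaks above 100 were both outside the 5.

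**Figure D5:**
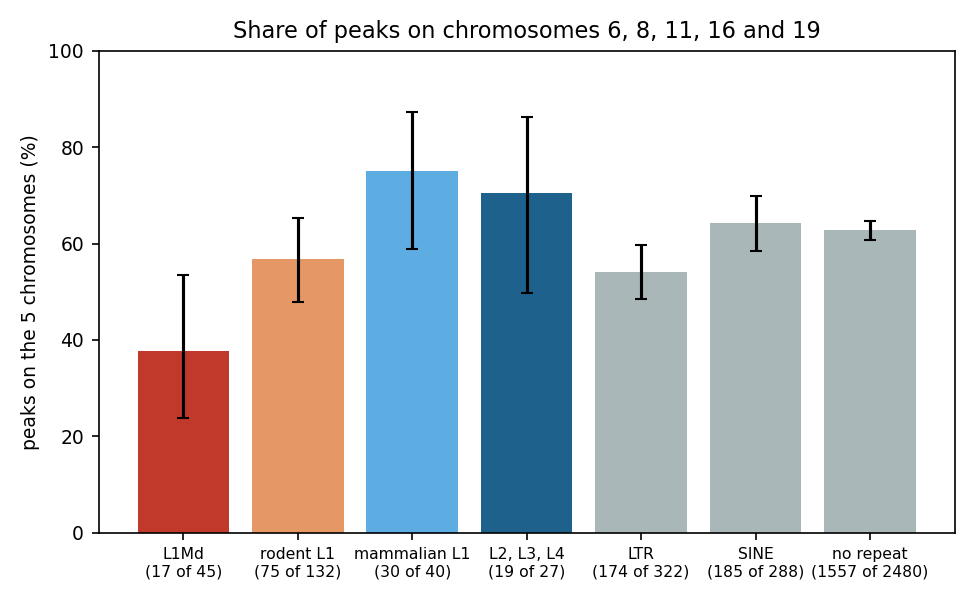
Share of peaks on chromosomes 6, 8, 11, 16 and 19 (y axis, %) for the 4 LINE groups and, in grey, the other kinds of peak. Error bars are exact 95% Clopper-Pearson intervals, and L1Md is lowest with 37.8%.

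LINE peaks rarely stood beside another peak. Within 10 kb of any other peak lay 20 of 244 (8.2%, 5.08 to 12.4%), against 13.4% of LTR peaks, 25.3% of SINE peaks, 21.5% of peaks with no repeat label and 21.5% of all peaks. The median distance to the nearest other peak was 203039.5 bases, against 49857 over all peaks, and it was 548883 bases for L1Md, 227449 for rodent L1, 54633 for mammalian L1 and 32220 for L2, L3 and L4. Peak density moved with this distance. On the 5 chromosomes with most peaks the LINE median was 77153 bases, against 24334 for peaks not on LINEs, and on the other chromosomes it was 672245, against 164107. The order of the 4 groups was the same within each, at 358780, 109518, 39948.5 and 20474 bases on the 5 and 891958, 644992, 278738 and 245653 on the others, the last 2 from 10 and 8 peaks. Within 10 kb of another peak lay 11.3% of LINE peaks on the 5, against 31.9% of peaks not on LINEs, and 3.88% on the others (1.07 to 9.65%), against 6.2%. The only LINE peaks within 10 kb of each other were a pair on L1VL4 on chromosome 8, with 6305 bases between them and scores of 32.99 and 34.02, near Fcho1 and Zfp709. The 244 peaks had 238 nearest genes. No gene had 3 or more, and 6 had 2, namely Epha3, Gm20740, Mdfic, Nxph1, Tmcc1 and Tusc3, which were named after their values were seen.

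Pulled-down RNAs lay near a smaller share of LINE peaks than of all peaks. The authors' deposited tables list 6208 non-coding RNAs whose RPKM (reads per kilobase of transcript, scaled to library depth) in the pull-down were at least 2.5 times those in the input, and 12 LINE peaks lay within 10 kb of one (4.92%, 2.57 to 8.43%). The share was 7.76% of LTR peaks, which is within the LINE interval, 8.68% of SINE peaks and 10.8% of peaks with no repeat label. It was 9.88% of all intronic and intergenic peaks and 12.4% of all peaks. None of the 42 LINE peaks with a score above 40 was among the 12, against 14.8% of all peaks with such a score, whatever their class. With so few LINE peaks no difference can be read from this, and none was tested. The intervals of folds below come from read numbers recovered from the RPKM values, with non-coding RNA reads counted as pairs, and they cover counting error only. An odd number of reads was rounded up to whole pairs. At few reads the interval of a non-coding RNA is therefore not centred on the deposited fold.

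In 4 cases the RNA overlapped the peak (1.64%, 0.448 to 4.14%), against 3.43% of all peaks and 2.46% of intronic and intergenic ones, both within the LINE interval. The L2a peak near Fam64a overlapped NONMMUT010580, which had 23.057 RPKM in the pull-down, against 7.928 in the input, a fold of 2.91 (2.08 to 4.08) in the authors' deposited table. The L2c peak near Klhdc8a overlapped NONMMUT002600, with 0.91 RPKM in the pull-down, against 0.287 in the input, and a fold of 3.17 (2.15 to 4.85) in the authors' deposited table. The other 2, on L1MC5 near Frmpd4 and on L1Md_F2 near Kcne4, overlapped RNAs whose deposited spans are 361197 and 432888 bases, with pull-down values of 0.018 and 0.071 RPKM, against 0.001 and 0.013 RPKM in the input. The Kcne4 peak was named here because it is among the 4 overlaps.

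Beside the overlaps, the closest RNA with recovered reads was 1103 bases from the Lx3C peak near Tmem168. That RNA, NONMMUT055780, had 14.041 RPKM in the pull-down, against 0.289 in the input, and a fold of 48.58 (16.4 to 237) in the authors' deposited table. The largest fold of the 12 was 102.3, near the L2a peak in an intron near Brd7, and it rests on 158 reads in the pull-down, against 1 in the input (8.89 to 2038.7). The lowest bound belonged to the RNA 2379 bases from the peak near Itprip, with 20 reads in the pull-down, against 5 in the input, a fold of 2.59 in the authors' deposited table and an interval of 0.554 to 12.2. RNAs near the peaks at 4930444G20Rik, Fmr1, Armc1 and Frg1 had folds of 6.57, 5.97, 6.17 and 7.43 in the authors' deposited table, with lower bounds between 1.83 and 3.1. The RNA 343 bases from the Lx8 peak near Spryd3 had 2.518 RPKM in the pull-down, against exactly 1 in the input, which allows no interval.

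By nearest gene, LINE peaks had about the background share of pulled-down RNAs. The nearest gene of 15 LINE peaks had a promoter-associated non-coding RNA on the authors' list (6.15%, 3.48 to 9.94%), against 8.77% of all peaks. The nearest gene of 16 LINE peaks, 15 genes in all, was on the list of pulled-down mRNAs (6.56%, 3.79 to 10.4%), against 6.51% of all peaks. No gene was on both lists. The background lay within both LINE intervals.

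The highest-scoring LINE peak of this kind was the one 378044 bases from Tbl1xr1, whose promoter-associated RNA had 5.826 RPKM in the pull-down, against 0.117 in the input. Its fold of 49.79 in the authors' deposited table rests on 154 reads in the pull-down, against 2 in the input (8.66 to 1987.7). Msh5 followed among genes with recovered reads, with an mRNA at 0.51 RPKM in the pull-down, against 0.106 in the input, and a fold of 4.81 (3.52 to 6.65) in the authors' deposited table. At Msh5 the L2c peak lay 787 bases from the start, so it is the only mRNA candidate gene here with a LINE peak in the first 1 kb. For Vmn2r22, Plbd1, Cobl, Edil3 and Tmem168 the read numbers could not be recovered or the input was exactly 1, and their folds in the authors' deposited table ran from 3.0 to 8.0. The promoter-associated RNA of Fmr1, a gene for an RNA-binding protein of neurons, had a fold of 5.97 (2.14 to 23.1) in the authors' deposited table, with an L1Md_T peak in an intron 9453 bases from the start. For 4930444G20Rik, 10 reads in the pull-down, against 1 in the input, gave an interval of 0.808 to 246.

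Genes of LINE control were looked at in both assays. Over 5 lists, of the HUSH complex and MORC, heterochromatin factors, DNA methylation, L1 RNA and replication factors, and the piRNA pathway, none of 45 genes was nearest to a LINE peak. Of the 21900 protein-coding genes of the RefSeq table, 0.941% were, so a count of 0 among 45 is near the background. Some peak of another kind was nearest to 8 of the 45, against 12.8% of protein-coding genes with a peak of any kind, among them Dnmt1, the maintenance DNA methyltransferase, with a promoter peak of 35.69, and Rnaseh2a, an RNase H subunit, with 3 peaks and a top score of 72.13. A promoter-associated RNA was listed for 4, against 6.31% of protein-coding genes. Of these 4, Fam208a, a HUSH subunit, had 3.877 RPKM in the pull-down, against 1.459 in the input (2.66-fold in the authors' deposited table, 1.44 to 5.35). Cbx3, a heterochromatin protein, was also 2.66-fold (2.02 to 3.55) in the authors' deposited table, and it was the only one of the 45 with a peak, a promoter-associated RNA and an mRNA candidate. The mRNA list held 2 of the 45, against 6.88% of protein-coding genes. The Cbx3 mRNA was 2.86-fold in the authors' deposited table, and the only other mRNA candidate of the 45 was Piwil4, of the piRNA pathway, with 10.25-fold in the same deposited table of the authors and an input of 0.004 RPKM.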

How the data were processed

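ChIRP-seq peaks and pull-down candidates of 2 of the 12 libraries were analysed, and the members and gene lists were chosen with earlier results of these data known. Per the submitters' processing notes the tools were FastQC, Trimmomatic, Bowtie2, SAMtools, Picard 1.119, HOMER, bedtools 2.15 and MACS on genome mm9, with no role given. The annotation table's header names a MACS peak file of mm9. The authors deposited a MACS score and a signed distance to the TSS for each peak, and RPKM of pull-down and input with their ratio (fold) for candidates of at least 2.5-fold, per the file headers.

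Peaks were joined between both peak files by identifier, and coordinates are 1-based. Medians, shares and distances were computed with Python 3.11.15, pandas 2.3.3 and SciPy 1.17.1, and the steps were tested on simulated data. Distances to RNAs run between nearest ends. With 1 library a group there was no test between groups and no replicate check. Read numbers were recovered by finding the number of reads that makes RPKM times length whole within 0.15 reads, which gave 14.97 M for the pull-down and 9.66 M for the input in the non-coding tables, and 42.01 M and 23.86 M in the mRNA table. In the non-coding input 81.7% of the numbers were even, so non-coding reads were counted as pairs, with odd numbers rounded up. Inputs of exactly 1, held by 1563 non-coding candidates, got no interval. The depth of the ChIRP-seq library is not in the files used here.

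Named were the 15 LINE peaks with the highest score, the 10 nearest to a TSS, the 10 highest-scoring ones near a pulled-down RNA or with a candidate nearest gene, and families and subfamilies with 4 or more peaks. The split of other L1 into rodent and mammalian names, and the choice of the genes whose promoters are shown, were made after the values were seen. The alternatives were another score minimum, leaving out 5 chromosomes, and other distances and folds.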

Additional observations from a re-analysis of the deposited data

How the results depend on the processing

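Of 42 values recomputed, 21 moved by less than the 95% interval of the main value and 21 by more, or by over 1.5 times for counts. With only peaks scoring above 40, LINE peaks were 42, or 3.94% of the 1065 peaks above that score. They had a median score of 45.62, width of 702.5 bases and TSS distance of 29064 bases, against 47.33, 855 and 10746 over all 1065. Of the 42, 47.6% were intronic, against 38.2% of all peaks above that score, which include classes that no repeat peak had. Among all peaks above that score 407 were intronic and 407 intergenic. The LINE peaks, 20 of 42 intronic, were thus close to the even split of those 2 classes. In the full list the gap was wider, 40.2% of LINE peaks against 51.6% of intronic and intergenic peaks. A promoter-associated RNA was at the nearest gene of 1 of the 42 (2.38%), against 10.4% of all peaks above that score. Of the 42, 0.0% lay within 10 kb of a pulled-down non-coding RNA or of another LINE peak. These counts are small, no interval was computed for them and no difference was tested. Without chromosomes 6, 8, 11, 16 and 19, 103 LINE peaks were left. Their median TSS distance was 59754 bases and their median width 568 bases, against 17261 and 605 over all 1620 peaks left. Of the 103, 0.0% lay within 10 kb of another LINE peak. Several moves follow from the setting itself. A score above 50 was reached by 5.33%. Within 2 kb of a TSS lay 2.05%, and within 50 kb 54.5%. Beyond 50 kb lay 45.5% of LINE peaks, against 21.1% of all peaks. A non-coding RNA was overlapped by 1.64% of LINE peaks, against 3.43% of all peaks. Within 100 kb of one lay 26.6% of LINE peaks, and 2.05% lay within 10 kb of a promoter-associated one. An mRNA candidate of at least 5-fold was at the nearest gene of 2.87%, and 5.74% lay within 100 kb of another LINE peak. Where no share of all peaks stands beside these values, they describe the LINE peaks only. No label was written "LINE?", so that alternative changed nothing. No paired analysis was possible because each group has 1 library.

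These peaks come from 1 library without a control capture. Multiple mapping, the copy number of each subfamily in the genome, and the strand and position of a peak within its element were not analysed here.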

Other observations

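The nearest gene of 212 of the 244 LINE peaks was protein coding (86.9%, 82.0 to 90.9%), against 87.7% of all intronic and intergenic peaks. By symbol, 7 LINE peaks had a microRNA gene nearest (2.87%, 1.16 to 5.82%), against 127 of 4042 other peaks (3.14%). Zinc finger genes named Zfp were nearest to 6 LINE peaks (2.46%, 0.908 to 5.28%), against 1.04% of other peaks, and predicted genes named Gm to 13 (5.33%, 2.87 to 8.94%), against 3.02%. Olfactory and vomeronasal receptor genes were nearest to 2 LINE peaks each (0.82%, 0.0994 to 2.93%), against 0.297 and 0.173% of other peaks. These classes were picked by symbol, and no difference was tested.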
